A study of Mus musculus with 9 samples.

Results

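Chemokines are small secreted proteins that bind G protein-coupled receptors and direct the movement of leukocytes along their gradients. The CC and CXC families are named after the spacing of their first conserved cysteines, and each ligand draws a particular set of cells, such as monocytes through CCR2 or neutrophils through CXCR2. Myeloid cells make many of them, and inflammatory and interferon signals are known to switch on several of their genes through NF-kB and IRF transcription factors.

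The chemokine ligands measured here were 10 genes, Ccl2, Ccl3, Ccl4, Ccl5, Ccl6, Ccl9, Cxcl2, Cxcl9, Cxcl10 and Cxcl16, taken as every array probe whose accession belongs to one of them. This gave 11 probes of 41174 on the array, because Cxcl16 had 2, and all 11 were among the 36585 probes tested. The study asked how the transcription factors GATA2 and PU.1 (encoded by Spi1, also called Pu.1) act in multipotent blood progenitors. FDCPmix, a mouse progenitor line that renews itself in culture, was kept under self-renewal conditions and infected with lentivirus carrying shRNA against Gata2 (Gata2 KD), shRNA against Pu.1 (Pu.1 KD) or no shRNA (empty vector, EV). At day 5 the viable GFP-positive cells of all groups were sorted, and their RNA was labelled with Cy3 and hybridised to single-colour Agilent arrays, with 3 arrays per group. All groups therefore carried virus and were sorted in the same way, all came from 1 cell line, and the labels do not give how many shRNA sequences were used for each target.

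A level is a probe's log2 intensity after the 75th percentile of its array was subtracted, so it can be followed between arrays but not set against the level of another probe. Of the spots on each array, 80.4% to 89.6% were well above background. The 3 slides held 1 array of each group, so every difference could also be read within a slide. EV replicate 3 stood apart at dim probes, with a lowest level well above background of -5.04 against -6.41 and -6.18 on the other EV arrays and a mean correlation with the other arrays of 0.960 against 0.971 to 0.978, and calls lost without it are named. The targeted genes followed the labels: Gata2 fell by 1.61 on the log2 scale in Gata2 KD (adjusted p = 0.00414), and Spi1 fell by 1.73 in Pu.1 KD (adjusted p = 0.00178). Spi1 also rose by 1.39 in Gata2 KD (adjusted p = 0.0012), whereas the change of Gata2 in Pu.1 KD was -0.15 (adjusted p = 0.964). The p-values measure the spread between the triplicate transductions given by the labels.

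The sequence upstream of a chemokine gene holds the sites through which these signals are known to act, so the 250 bases before the annotated start were searched for short motifs. RefSeq promoters of assembly GRCm38.p6 were matched by symbol for 6 of the 10 genes (Ccl3, Ccl6, Ccl9, Cxcl2, Cxcl9 and Cxcl10). The motifs, sought on both strands, were GAAANNGAA (interferon-stimulated response element-like), GAGGAA (PU.1-like), the GATA factor motifs AGATAA plus TGATAA, and the NF-kB consensus. The 5 promoters with a match are printed 5′ to 3′ on the gene's strand, with matches in capitals. They lie at chr5:92348890-92349139 (minus strand), chr5:92328080-92328329 (minus), chr5:90903649-90903898 (plus), chr11:83649379-83649628 (minus) and chr11:83578637-83578886 (minus).
Cxcl10: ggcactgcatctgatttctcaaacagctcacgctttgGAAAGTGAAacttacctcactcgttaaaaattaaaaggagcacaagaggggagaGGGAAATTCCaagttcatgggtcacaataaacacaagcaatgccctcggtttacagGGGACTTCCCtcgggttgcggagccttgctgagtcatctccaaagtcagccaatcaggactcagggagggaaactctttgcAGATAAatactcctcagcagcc
Cxcl9: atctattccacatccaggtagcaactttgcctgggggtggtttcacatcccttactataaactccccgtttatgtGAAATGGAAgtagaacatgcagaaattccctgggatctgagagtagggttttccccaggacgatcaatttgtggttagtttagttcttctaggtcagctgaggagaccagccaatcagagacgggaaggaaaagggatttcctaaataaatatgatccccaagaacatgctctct
Cxcl2: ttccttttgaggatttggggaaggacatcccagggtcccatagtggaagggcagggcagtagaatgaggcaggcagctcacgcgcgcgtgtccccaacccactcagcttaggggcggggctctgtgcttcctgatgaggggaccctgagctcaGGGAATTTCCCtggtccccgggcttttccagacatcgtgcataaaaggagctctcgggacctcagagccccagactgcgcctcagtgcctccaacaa
Ccl3: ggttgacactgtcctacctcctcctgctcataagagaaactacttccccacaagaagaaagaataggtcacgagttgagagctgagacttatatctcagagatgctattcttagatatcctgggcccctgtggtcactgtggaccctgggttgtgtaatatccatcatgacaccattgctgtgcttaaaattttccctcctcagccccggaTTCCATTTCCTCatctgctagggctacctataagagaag
Ccl9: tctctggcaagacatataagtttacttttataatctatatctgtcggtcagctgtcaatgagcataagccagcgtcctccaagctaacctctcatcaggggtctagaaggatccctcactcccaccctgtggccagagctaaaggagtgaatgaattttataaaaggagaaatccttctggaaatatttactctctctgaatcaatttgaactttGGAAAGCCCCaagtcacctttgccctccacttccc
Cxcl10 held a GAAANNGAA match at -213 to -205, NF-kB matches at -159 to -150 and at -103 to -94, and AGATAA at -22 to -17, counted in bases from the start. Cxcl9 held GAAANNGAA at -175 to -167. Cxcl2 held an NF-kB match that reads on both strands, from -97 to -88 and from -96 to -87. In Ccl3 the GAAANNGAA match at -39 to -31 and the GAGGAA match at -33 to -28 overlapped on the opposite strand, and Ccl9 held an NF-kB match at -35 to -26, also on the opposite strand. The Ccl6 window held none of the motifs searched. The PU.1 consensus GGAAGTG that the study reports was not among them. Its letters lie on the opposite strand in the Ccl6 and Ccl9 windows, and its share over all promoters was not counted. Among 32851 promoters of the same length, GAAANNGAA was present in 7.13%, GAGGAA in 23.3%, AGATAA in 9.99%, TGATAA in 7.94% and the NF-kB consensus in 3.9%. These matches describe letters and not occupied sites.

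**Figure D1:**
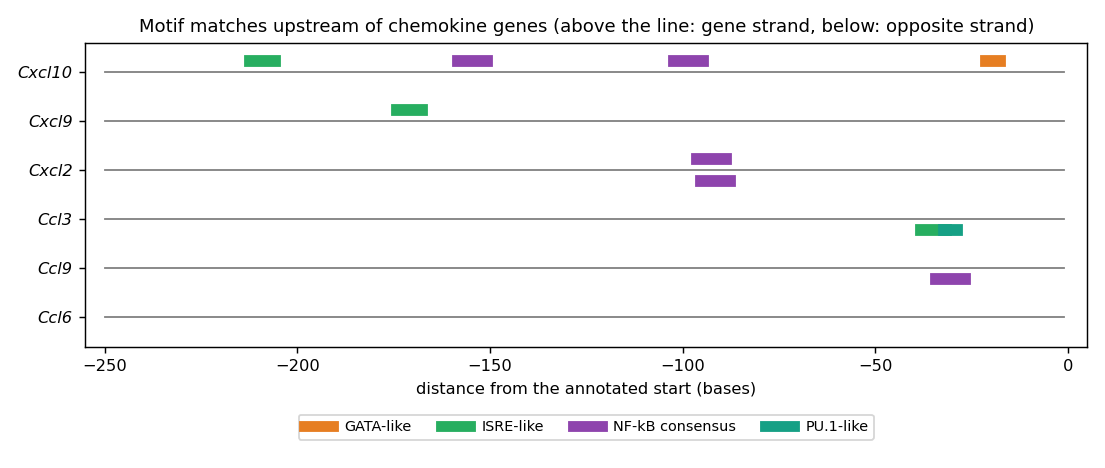
Position of motif matches in the 250 bases upstream of 6 chemokine genes, with the distance from the annotated start in bases on the x axis and 1 line per gene. Cxcl10 carries 4 matches, and the Ccl6 line is empty for the motifs searched.

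Most of the 10 chemokine ligands were higher in Gata2 KD, and some of them were lower in Pu.1 KD. The 10 are a part of the family and were chosen with earlier results of these data known. Of 21 other chemokine ligands tested, 3 rose and none fell in each knockdown against EV. In Gata2 KD, 7 of the 10 genes rose against EV (Ccl2, Ccl3, Ccl4, Ccl5, Ccl6, Cxcl2 and Cxcl10), none fell by the limma test at an adjusted p below 0.05, also none at an unadjusted p below 0.05, and Ccl9, Cxcl9 and Cxcl16 were not called. Over all tested probes 2.96% were called higher and 2.24% lower in this comparison. In Pu.1 KD, Ccl2, Ccl6 and Ccl9 fell (3 of 10, against 1.42% of all probes called lower) and Cxcl10 rose (1 of 10, against 1.27% called higher). Without EV replicate 1 or any 1 of the Pu.1 KD arrays, the Pu.1 KD calls came to 2, Ccl6 and Ccl9. The 10 genes had a median change of 1.47 in Gata2 KD and -0.53 in Pu.1 KD, where the medians over all tested probes were -0.09 and -0.04. Cxcl10 was above background on all Gata2 KD arrays, on no EV array and on 1 Pu.1 KD array, so it passed the filter on dim probes only through Gata2 KD, the group where it was high. Without it, 6 of 9 genes rose in Gata2 KD (median change 1.13), and 3 of 9 fell and none rose in Pu.1 KD, also unadjusted (median change -0.60). The EV arrays are shared by both comparisons. RNA from a sorted culture cannot tell a change in the number of cells of a type from a change in RNA per cell.

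**Figure D2:**
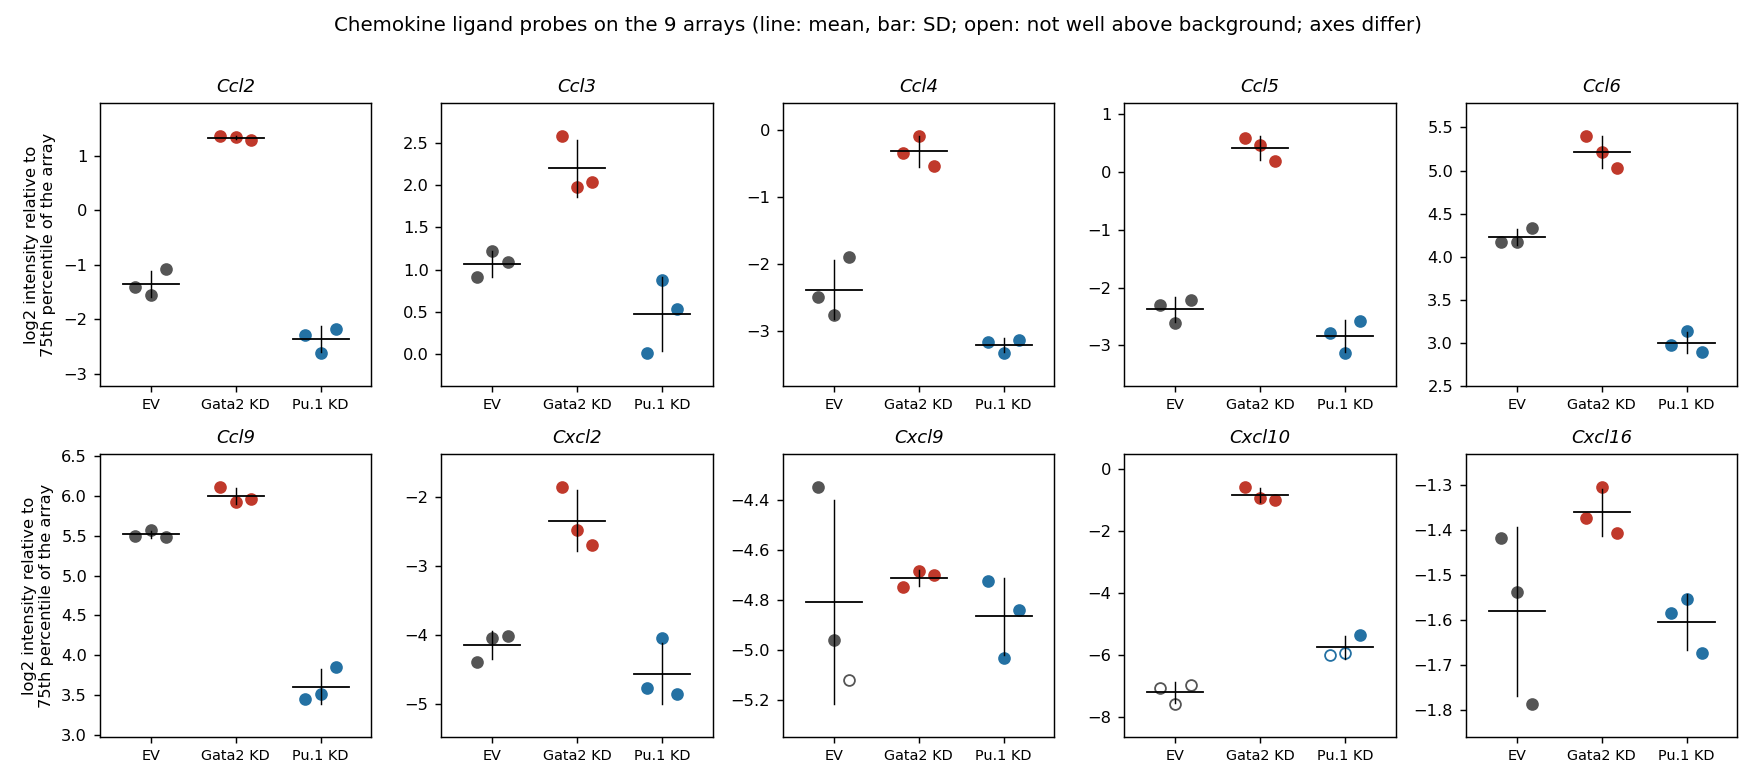
Level of each chemokine ligand on the 9 arrays, in log2 units with the 75th percentile of the array at 0, on a y axis that differs between panels, with points for arrays (replicates 1 to 3 from left to right), a line for the group mean and a bar for the SD (n = 3). The 3 Gata2 KD arrays lie above all EV arrays in every panel except that of Cxcl9, and open points are not well above background.

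The monocyte attractant Ccl2, a ligand of CCR2, was higher in Gata2 KD and lower in Pu.1 KD than in EV. Its levels were -1.42, -1.55 and -1.08 in EV, 1.36, 1.34 and 1.29 in Gata2 KD and -2.29, -2.62 and -2.18 in Pu.1 KD. No groups overlapped, and the Gata2 KD arrays spanned a narrower range than those of the other groups. The group means were -1.35 ± 0.24 in EV, 1.33 ± 0.03 in Gata2 KD and -2.36 ± 0.23 in Pu.1 KD (SD, n = 3). Ccl2 was thus 6.41-fold higher in Gata2 KD than in EV (log2 change 2.68, SE 0.17, adjusted p = 6.41e-05), and the difference within a slide was 2.42 to 2.91. In Pu.1 KD it fell by 1.02 (adjusted p = 0.0219), with -1.21 to -0.76 within a slide. The fall lost its call (adjusted p = 0.0501 to 0.0854) without EV replicate 1 or 3, Gata2 KD replicate 2 or 3 or any 1 of the Pu.1 KD arrays, whereas the rise was called in each alternative tried. The probe occupied 10 spots on each array, which were averaged.

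Ccl3 and Ccl4 encode the macrophage inflammatory proteins MIP-1alpha and MIP-1beta, which attract monocytes and T cells, and both rose in Gata2 KD. Ccl4 stood at -2.48, -2.75 and -1.90 in EV, at -0.33, -0.08 and -0.53 in Gata2 KD and at -3.16, -3.33 and -3.12 in Pu.1 KD. It was highest on every Gata2 KD array and lowest on every Pu.1 KD array. The rise in Gata2 KD was 2.06 (SE 0.23, adjusted p = 0.0012), with 1.81 to 2.42 within a slide, and the Pu.1 KD value of -0.83 did not pass the test (adjusted p = 0.13). Ccl3 levels were 0.91, 1.21 and 1.09 in EV, 1.97 to 2.58 in Gata2 KD and 0.01, 0.88 and 0.53 in Pu.1 KD. The groups again did not overlap, although the Pu.1 KD arrays of Ccl3 were widely spread (SD 0.44, n = 3). Ccl3 rose by 1.13 in Gata2 KD (SE 0.25, adjusted p = 0.0416). This call was the least secure of the rises, since it was lost without any of the 3 EV arrays or 3 Gata2 KD arrays or without Pu.1 KD replicate 3 (adjusted p = 0.0794 to 0.127). Its Pu.1 KD value was -0.60 (adjusted p = 0.385).

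Ccl5 (RANTES), which attracts T cells and monocytes through receptors that include CCR1 and CCR3, rose 6.95-fold in Gata2 KD. Its levels were -2.30, -2.61 and -2.21 in EV and 0.60, 0.48 and 0.20 in Gata2 KD. Each Gata2 KD array exceeded each EV array, by 2.80 in the mean on the log2 scale (SE 0.197, adjusted p = 9.73e-05). Within a slide the difference was 2.496 to 3.21. The Pu.1 KD arrays, at -2.79, -3.13 and -2.58, overlapped with EV and averaged 0.46 below it, with a 95% interval of the change from -0.91 to -0.01 and an adjusted p of 0.385.

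Ccl6 and Ccl9 are ligands of CCR1 that rodents make in myeloid cells, and both were bright in all groups. Ccl9 stood at 5.50, 5.57 and 5.49 in EV and dropped to 3.45, 3.51 and 3.86 in Pu.1 KD. This fall of 1.92 (3.77-fold, SE 0.15, adjusted p = 0.00127) was the largest among the chemokine ligands in Pu.1 KD. In Gata2 KD Ccl9 was at 6.12, 5.93 and 5.96, above all EV arrays, but the change of 0.48 was not called (adjusted p = 0.133). Ccl6 levels were 4.17, 4.17 and 4.33 in EV, 5.40, 5.22 and 5.03 in Gata2 KD and 2.97, 3.13 and 2.89 in Pu.1 KD. Its groups were fully separated in the order Pu.1 KD, EV, Gata2 KD. It rose by 0.99 in Gata2 KD (SE 0.15, adjusted p = 0.00542) and fell by 1.23 in Pu.1 KD (SE 0.15, adjusted p = 0.00556). The falls of Ccl6 and Ccl9 in Pu.1 KD were called in all 20 alternatives, and the rise of Ccl6 in Gata2 KD likewise.

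Ccl5, Ccl9, Ccl6, Ccl3 and Ccl4 follow one another on chromosome 11 with no other protein-coding gene between them in the RefSeq gene table. The change in Gata2 KD ran from 0.48 for Ccl9 to 2.80 for Ccl5, while the change in Pu.1 KD ran from -1.92 for Ccl9 to -0.46 for Ccl5. On each slide the Gata2 KD array lay above and the Pu.1 KD array below the EV array for all 5 genes. Ccl2 lies elsewhere on chromosome 11, next to Ccl7, another ligand of CCR2. Ccl7 overlapped between groups, with changes of 0.24 in Gata2 KD (adjusted p = 0.961) and -0.55 in Pu.1 KD (adjusted p = 0.843), and was chosen for mention after its values were seen.

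**Figure D3:**
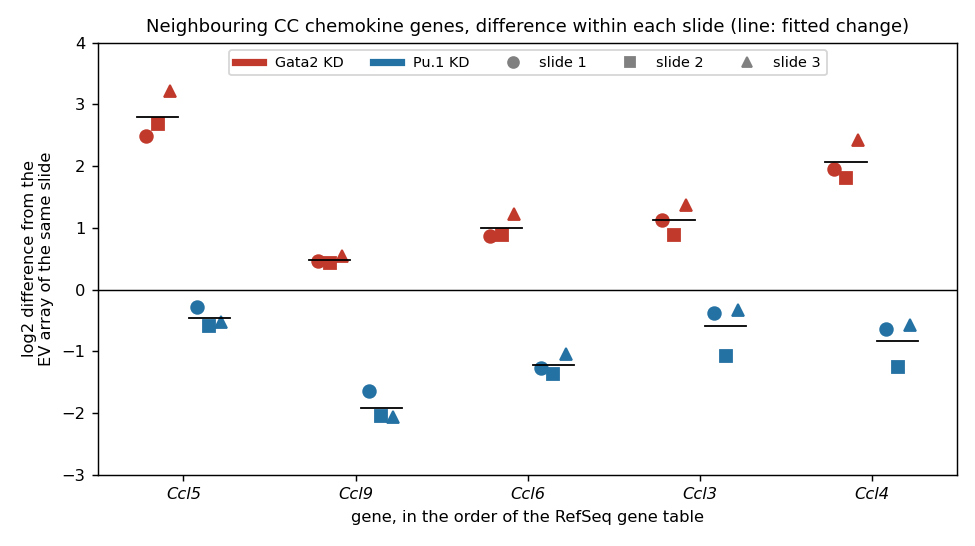
Difference in log2 level between each knockdown array and the EV array of the same slide (y axis) for the 5 adjacent CC ligand genes (x axis), with 1 symbol per slide and a black line at the fitted change. All Gata2 KD points are above 0 and all Pu.1 KD points are below 0, and Ccl9 has the lowest Pu.1 KD points, from -2.06 to -1.64.

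Among the CXC ligands, Cxcl10 (IP-10), an interferon-inducible ligand of CXCR3, changed most. On the EV arrays it was not well above background, at -7.07, -7.60 and -6.98, and on the Gata2 KD arrays it was at -0.56, -0.92 and -0.99. Set against the lowest level well above background on each EV array, Cxcl10 was 33.2-fold higher in Gata2 KD. The adjusted p of 7.49e-06 belongs to a probe that was tested only because its Gata2 KD arrays were above background. Within a slide the measured difference was 6.06 to 7.03 on the log2 scale. It was 2.28 with normexp background correction and 3.01 with the deposited log2 values, both called. The 33.2-fold value takes, on each EV array, the higher of the probe's own level and the lowest level of any probe well above background. It is not a strict lower bound, since some other probes above that lowest level were not well above background. In Pu.1 KD the levels were -6.00, -5.93 and -5.34, and only replicate 3 was well above background. The test called a rise in Pu.1 KD (adjusted p = 0.02), but no fold is given because no EV array and only 1 of 3 Pu.1 KD arrays measured the gene. That call was lost in 9 of 19 alternatives, among them the fits without EV replicate 1 or 2 or without any 1 of the Pu.1 KD arrays. With normexp the Pu.1 KD change was 0.13 (adjusted p = 0.9999).

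Cxcl9, the neighbouring ligand of CXCR3 that is separated from Cxcl10 by Art3 on chromosome 5, was not called in any comparison. It stood at -4.35, -4.96 and -5.12 in EV, -4.75, -4.68 and -4.70 in Gata2 KD and -4.72, -5.03 and -4.84 in Pu.1 KD. All 3 groups overlapped, and EV replicate 3 was not well above background. The change in Gata2 KD was 0.10 with a 95% interval from -0.38 to 0.57 (adjusted p = 0.965), and that in Pu.1 KD was -0.06 with an interval from -0.53 to 0.42. In the windows searched, both promoters hold a GAAANNGAA match, and of these neighbours only Cxcl10 holds exact matches to the NF-kB consensus. Whether these matches bear on the different changes of Cxcl9 and Cxcl10 was not tested.

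Cxcl2 (MIP-2), a neutrophil attractant that acts on CXCR2, was dim but above background on all arrays. Its levels were -4.38, -4.04 and -4.01 in EV, -1.85, -2.48 and -2.70 in Gata2 KD and -4.77, -4.05 and -4.85 in Pu.1 KD. Gata2 KD was clear of the other groups (1.53 to 2.19 above EV within a slide), and Pu.1 KD overlapped with EV. The rise in Gata2 KD was 1.80 (SE 0.29, adjusted p = 0.0078), and it was 0.97 with normexp and 1.22 with the deposited log2 values, both called. In Pu.1 KD the change was -0.41, with a 95% interval from -1.07 to 0.25 (adjusted p = 0.743).

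Cxcl16, which exists as a membrane-bound scavenger receptor and as a shed ligand of CXCR6, showed no called change at either of its probes. The brighter probe was at -1.42, -1.54 and -1.79 in EV, -1.37, -1.30 and -1.41 in Gata2 KD and -1.58, -1.55 and -1.67 in Pu.1 KD. Its Gata2 KD arrays lay just above all others, by 0.22 against EV (95% interval -0.09 to 0.53, adjusted p = 0.602). The Pu.1 KD change was -0.02 (95% interval -0.34 to 0.29). At the other probe the changes were 0.13 and -0.39, with all groups overlapping.

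**Figure D4:**
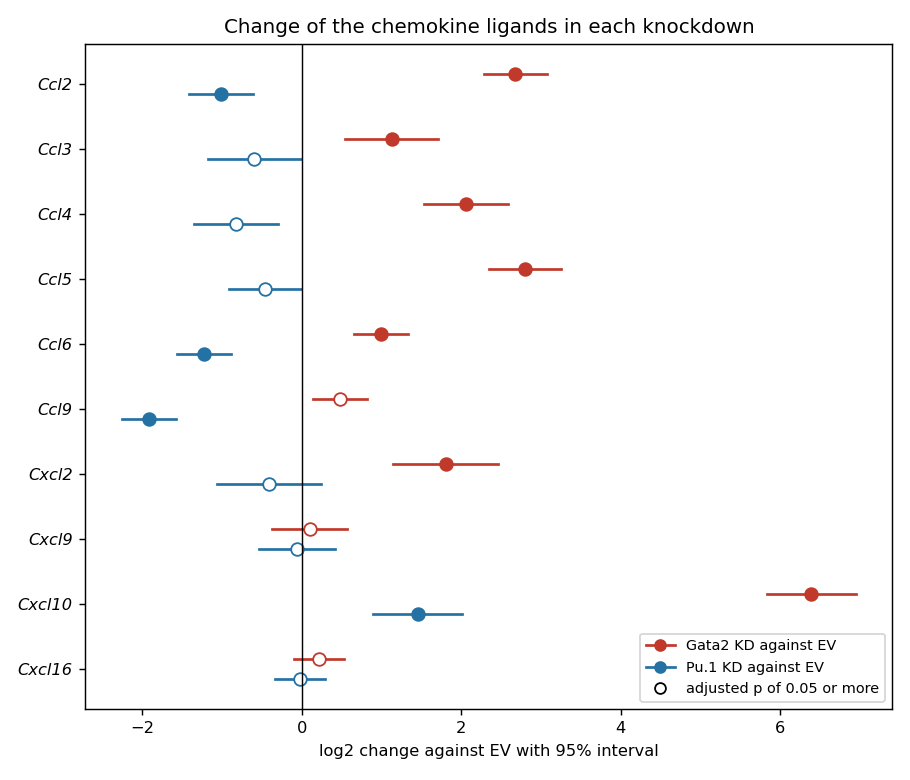
Log2 change of each chemokine ligand against EV (x axis) in Gata2 KD and in Pu.1 KD, with 95% intervals from the limma fit over 9 arrays and open points where the adjusted p was 0.05 or more. Cxcl10 lies farthest to the right at 6.39, a value measured against EV arrays that were not above background, and Ccl9 lies farthest to the left at -1.92.

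Counted by arrays alone, the 3 Gata2 KD values exceeded the 3 EV values for 9 of the 10 genes, Cxcl9 being the exception, and 7.65% of all tested probes showed this pattern. Without Cxcl10, which was tested only through its Gata2 KD arrays, 8 of 9 genes showed it. The 3 Pu.1 KD values lay below the 3 EV values for 5 genes, Ccl2, Ccl3, Ccl4, Ccl6 and Ccl9, and 9.32% of all tested probes did so. Set directly against each other, Gata2 KD exceeded Pu.1 KD for 8 of the 10 genes by the limma test, against 4.86% of all probes called higher. These were all except Cxcl9 (0.16) and Cxcl16 (0.24), and without Cxcl10 they were 7 of 9. The differences ran from 1.72 for Ccl3 (adjusted p = 0.0031) to 3.70 for Ccl2 (adjusted p = 5.73e-06), apart from Cxcl10 at 4.94 (adjusted p = 7.23e-06), for which 1 of 3 Pu.1 KD arrays was above background. Each of these 8 calls held in every alternative that tested the gene.

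Over the 9 arrays, the levels of Ccl2, Ccl4 and Ccl5 ran most closely together, with Pearson r of 0.992 for Ccl2 and Ccl4, 0.988 for Ccl2 and Ccl5 and 0.979 for Ccl4 and Ccl5. Ccl6 and Ccl9 correlated at 0.949. Cxcl9 correlated with none of the 8 called genes above 0.311. These values describe 9 points that fall into 3 treatment groups and share slides, so they include the group differences. Among 2141 other named genes called in at least 1 comparison, the profile most like Ccl2 was that of Ms4a6c (r = 0.999), followed by Wfdc21 and Rspo1 (both 0.998). The profile nearest to Ccl9 was that of Ms4a3 (0.997), followed by Mtmr4 (0.995) and Klk8 (0.994), and that nearest to Ccl6 was Csta1 (0.998), followed by Cstdc6 (0.997) and Tm6sf1 (0.995). Ccl4 was most like Fcgrt and Bcl2a1b (both 0.996). Ccl5 was most like Clec4a2, Cd300c2 and Dennd2a (all 0.997). Cxcl10 was most like Soat1 and Slc7a7 (both 0.996) and Lpl (0.995), although Cxcl10 was not well above background on 5 of the 9 arrays. Cxcl2 was nearest to Prkd3 (0.993), Degs1 (0.992) and Rnaseh2c (0.989), and Ccl3 to Malt1 and Acsl1 (both 0.988) and Aldh3a2 (0.987).

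Receptors that these ligands use were measured in the same RNA. Ccr2, the receptor of Ccl2, was at -1.43, -0.999 and -1.04 in EV, 2.01, 1.33 and 1.33 in Gata2 KD and -2.77, -1.96 and -2.21 in Pu.1 KD. Ligand and receptor therefore had the same order of groups, without overlap. Ccr2 rose by 2.71 in Gata2 KD (SE 0.27, adjusted p = 0.000648), and its Pu.1 KD value of -1.16 was not called (adjusted p = 0.0716).

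Cxcr2, the receptor of Cxcl2, was called only in the direct comparison of the knockdowns, where Gata2 KD was 1.46 higher (adjusted p = 0.0123), with values of 0.58 in Gata2 KD and -0.89 in Pu.1 KD against EV. The remaining receptors described here gave no call. Ccr3, an eosinophil receptor for Ccl5, had changes of 0.49 and 0.75 in Gata2 KD and Pu.1 KD, and Cxcr3, the receptor of Cxcl9 and Cxcl10, had -0.10 and 0.14. Cxcr6, the receptor of Cxcl16, had -0.004 and -0.02 with 2 of 3 arrays above background in each group. Ccr1, a receptor of several CC ligands, was well above background on Gata2 KD replicate 1 alone and was not tested.

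**Figure D5:**
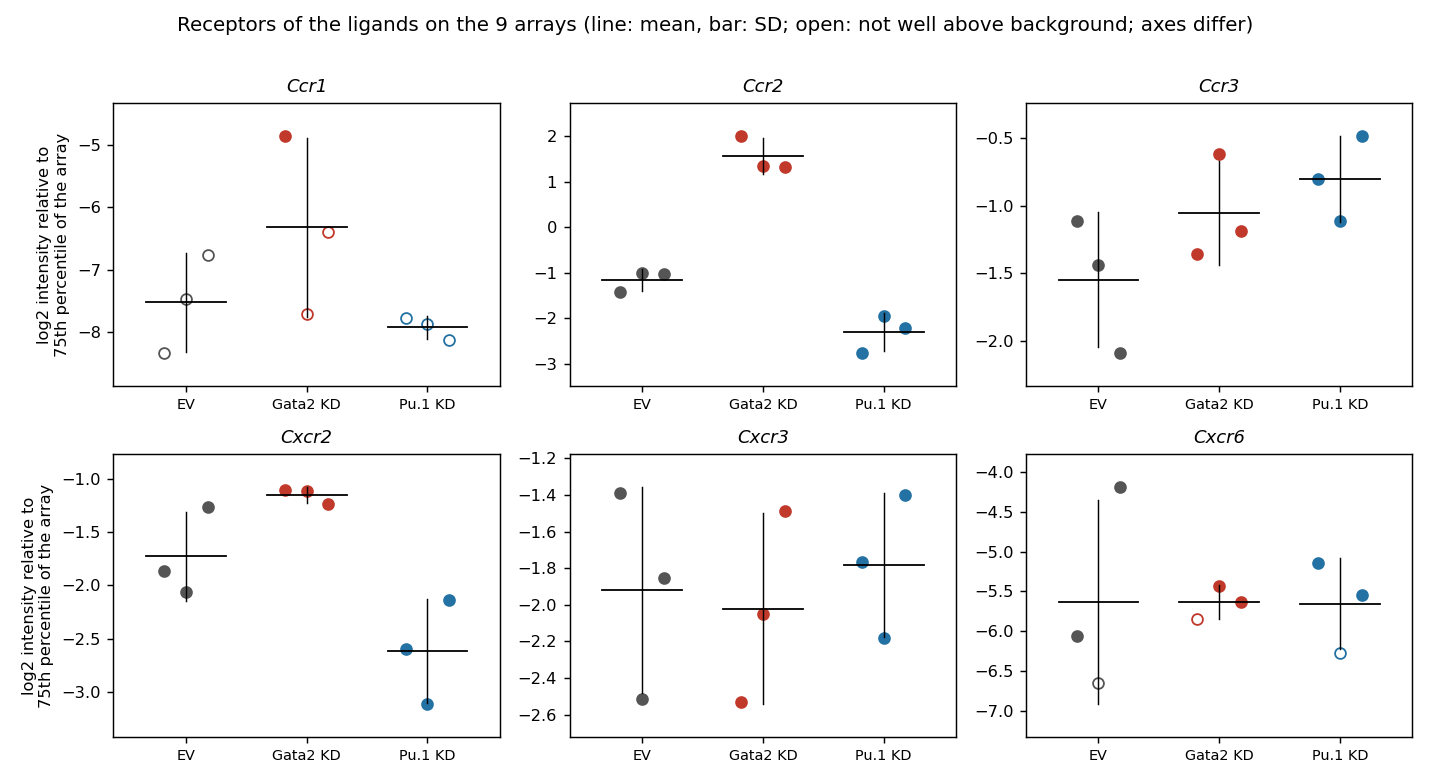
Level of 6 receptors of these ligands on the 9 arrays, in log2 units with the 75th percentile of the array at 0, on a y axis that differs between panels, with points for arrays, a line for the mean and a bar for the SD (n = 3). The Ccr2 panel shows 3 separate groups, with means of 1.56 in Gata2 KD, -1.16 in EV and -2.31 in Pu.1 KD, and open points are not well above background.

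Among all 22 chemokine receptors and decoys tested, 1 rose and none fell in Gata2 KD, where 2.96% of all probes were called higher. In Pu.1 KD 1 rose and none fell, where 1.27% were called higher. At an unadjusted p below 0.05, 4 rose and 1 fell in Gata2 KD, and 3 and 2 in Pu.1 KD. No share of all probes was counted at that threshold. The count called higher or lower in Gata2 KD was 2 without EV replicate 1 or Pu.1 KD replicate 2, and 4 with the slide as a block. The receptor that rose in Pu.1 KD was Ackr1, an atypical receptor that binds many inflammatory chemokines without signalling through G proteins. It was at 0.75, 0.85 and 1.11 in EV, 0.23, 0.57 and 0.10 in Gata2 KD and 2.62, 2.42 and 2.35 in Pu.1 KD. Its order of groups was the reverse of that of Ccr2, with a rise of 1.56 in Pu.1 KD (SE 0.18, adjusted p = 0.00415) and a value of -0.60 in Gata2 KD (adjusted p = 0.116). Of the 5 chemokine-cleaving proteases tested, the neutrophil collagenase Mmp8 rose by 5.04 in Gata2 KD (adjusted p = 3.47e-06) and fell by 1.51 in Pu.1 KD (adjusted p = 0.0024), and no other was called against EV.

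Of the other chemokine ligands on the array, 18 of 21 tested were not called in each comparison against EV. Of the 21, 3 rose and none fell in Gata2 KD (5 and 0 at an unadjusted p below 0.05), and 3 rose and none fell in Pu.1 KD (4 and 1 unadjusted), where 2.96% and 1.27% of all tested probes were called higher. Ppbp, the precursor of the platelet and neutrophil-activating chemokine CXCL7, rose by 1.65 in Gata2 KD (adjusted p = 0.000537), and Cx3cl1 (fractalkine, the ligand of CX3CR1) by 1.16 (adjusted p = 0.00144). Pf4, platelet factor 4, rose by 1.62 in Pu.1 KD (adjusted p = 0.0124), where its levels were 6.86, 6.83 and 6.60 against 4.88, 5.24 and 5.32 in EV. The summed level of the 4 megakaryocyte markers was also higher there, at 46.8 to 52.1 against 22.3 to 36.3 in EV, with 1 of the 4 called, and its part in the Pf4 value was not tested. Ccl17, a ligand of CCR4, rose in both knockdowns, by 1.29 (adjusted p = 0.0104) and 1.18 (adjusted p = 0.0287). Cxcl3, a ligand of CXCR2, rose by 1.12 in Pu.1 KD (adjusted p = 0.0355), with 1 of 3 EV arrays above background. Of the 3 rises in Pu.1 KD, none stayed called if Pu.1 KD replicate 1 or 2 was left out, and 1 did if EV replicate 1 or 2 or Pu.1 KD replicate 3 was.

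Genes of the pathways known to induce chemokines were read from lists set by their roles, with earlier results of these data known. Of 20 genes of interferon signalling and response tested, 13 rose and 1 fell in Gata2 KD (2.96% and 2.24% of all probes), whereas none rose in Pu.1 KD (2 at an unadjusted p below 0.05) and 1 fell (1.27% and 1.42% of all probes). The transcription factor Irf8 rose by 4.38 (adjusted p = 3.47e-06) and the interferon-induced Ifit3 by 4.35 (adjusted p = 0.000752), followed by Gbp3 (2.74), Isg15 (1.98), Irf7 (1.67) and Ifit1 (1.63), where 1 EV array each of Ifit1 and Ifit3 was not well above background. The interferon genes Ifng (-0.06, adjusted p = 0.989) and Ifnb1 (0.24, adjusted p = 0.924) were not called in Gata2 KD, and were chosen for mention after their values were seen. The kinase gene Jak2 fell by 1.04 in Pu.1 KD (adjusted p = 0.0125). Of 15 genes of the NF-kB pathway and its targets, 4 rose and none fell in Gata2 KD, against the same shares of all probes called. At an unadjusted p below 0.05, 8 rose and none fell, and no share of all probes was counted at that threshold. The 4 called were the inhibitor Nfkbia (1.82), the cytokine Il1b (1.61), the subunit Relb (1.43) and the cytokine Tnf (1.196). In Pu.1 KD none of the 15 rose (1 unadjusted) and the adhesion molecule Icam1 fell by 1.28 (adjusted p = 0.0362).

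Neutrophil markers, and most monocyte and macrophage markers in Gata2 KD, changed in the same direction as most of the called chemokine ligands. Mast cell and basophil markers mostly went the other way in Gata2 KD. Over all tested probes 2.96% were called higher and 2.24% lower in Gata2 KD, and 1.27% and 1.42% in Pu.1 KD. All 9 neutrophil markers tested rose in Gata2 KD and 8 fell in Pu.1 KD, and their summed level (the sum over markers of intensity divided by that percentile) was 116.6 to 131.7 in EV, 895.5 to 1028 in Gata2 KD and 20.4 to 26.98 in Pu.1 KD, with all 9 above background on every array. Of 8 monocyte and macrophage markers tested, 6 were called higher in Gata2 KD and 2 lower in Pu.1 KD, with sums of 5.01 to 5.87, 28.6 to 30.6 and 3.08 to 3.74. The 6 include Mrc1, which was not above background on any EV or Pu.1 KD array and so was tested only through the Gata2 KD arrays. Of the 7 mast cell and basophil markers, 5 fell and none rose in Gata2 KD. Their sum there was 18.6 to 20.3 against 113.7 to 131.2 in EV. In Pu.1 KD 1 rose and 1 fell, and the sum was 84.0 to 91.2. The 7 progenitor markers were above background on all arrays. In Gata2 KD 3 rose and 2 fell (sum 63.1 to 72.9, against 42.6 to 57.1 in EV). In Pu.1 KD 1 rose and 2 fell (42.1 to 46.3). Their median change was -0.395 in Gata2 KD and 0.29 in Pu.1 KD. Sums weight the brightest markers most, and the higher progenitor sum came with Cd34 (mean level 3.07 in EV, 5.24 in Gata2 KD). Mpo and S100a9 were the brightest neutrophil markers. Of 3 erythroid markers, 2 fell in Gata2 KD (sum 1.04 to 1.18, against 1.90 to 2.13 in EV) and 2 rose in Pu.1 KD (3.42 to 4.12). Sums of T and NK cell markers were 1.31 to 2.21, 1.35 to 2.03 and 1.33 to 2.004 in EV, Gata2 KD and Pu.1 KD, with none of 4 called or past an unadjusted p of 0.05. The part of these cell type differences in the chemokine values was not tested.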

How the data were processed

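RNA of 9 cultures was measured on Agilent single-colour arrays (design build mm8). The deposited intensity values came from Agilent Feature Extraction 10.1.1.1 (background-subtracted, detrended processed signal, not normalised between arrays). The authors also deposited log2 values of all arrays, which correlated with the log2 median signal at 0.997 or more and were used as an alternative.

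Outlier-flagged spots were left out (47 to 96 on an array), spots of a probe were averaged, and the 75th percentile of each array was subtracted on the log2 scale. Probes well above background on at least 3 arrays with 2 values per group were tested. Accessions named 23374 probes through RefSeq GRCm38.p6, and the brightest tested probe stood for a gene. The package limma 3.58.1 under R 4.3.3 fitted the 3 group means over all 9 arrays (lmFit, eBayes), and tests were two-sided, with Benjamini-Hochberg adjustment over 36585 probes at 0.05. Having 3 arrays per group limits the precision.

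The genes, lists and tests were chosen with earlier results of these data known. Named were all 10 ligands, their receptors, Gata2, Spi1, up to 6 called members of each list with the largest change against EV, and the 3 most similar profiles, and some items under these rules are not reported here. Alternatives were other scalings, background corrections, filters and fits, and each array left out. Normexp used the median signal with an offset of 50.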

Additional observations from a re-analysis of the deposited data

How the results depend on the processing

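No alternative turned the sign of a called change, whereas the uncalled values of Cxcl9 in both knockdowns (-0.06 to 0.53 and -0.21 to 0.40) and of Cxcl16 in Pu.1 KD (-0.13 to 0.06) took both signs. The count of chemokine ligands called in Gata2 KD against EV was 6 to 8 and that in Gata2 KD against Pu.1 KD was 7 to 8. The Pu.1 KD count of 4 was 2 with only the groups compared and 2 with the replicate number as a block, and 2 to 4 with 1 array left out. Where it was 2 (without EV replicate 1 or any 1 Pu.1 KD array), the genes were Ccl6 and Ccl9. Same-numbered arrays did not consistently deviate together (r from -0.552 to 0.652 over 9 pairs). Slide differences were left in these deviations, so they cannot decide whether the numbers pair the samples. With the replicate block the counts were 6, 2 and 8 and all calls went from 1902 to 1172, 986 to 234 and 3524 to 2368, and 3 of 9 arrays correlated best with their own number. By slide, 8 of 9 correlated best with an array of their own slide (same-slide r from -0.041 to 0.719), which the fit reported above leaves out. With the slide as a block the ligand counts stayed at 7, 4 and 8.

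The rise of Ccl3 in Gata2 KD was lost in 11 of 20 alternatives (adjusted p = 0.00976 to 0.136 over all 20). The fall of Ccl2 in Pu.1 KD was lost in 9 of 20 (0.00701 to 0.109 over all 20). The rise of Cxcl10 in Pu.1 KD was lost in 9 of 19 (0.0203 to 0.9999 over all 19). Ccl9 in Gata2 KD became called with normexp, with the deposited values and with trend and robust settings. Ccl4 in Pu.1 KD became called with the deposited values alone (adjusted p = 0.0287). The change of Cxcl10 in Gata2 KD was 2.28 with normexp and 3.01 with the deposited values, against 6.39. Receptor calls against EV were 1 to 4 in Gata2 KD and 1 to 3 in Pu.1 KD, and 4 and 2 with the slide block, against 1 and 1. Other ligands called were 5 in Gata2 KD with the slide block and 0 in Pu.1 KD with the replicate block, against 3 and 3. Calls over all probes ranged from 1072 to 2886, 223 to 1875 and 2206 to 5168. Cxcl9 and Cxcl10 could not be fitted under the filter on all 9 arrays. The cause was not tested for these changes. Signal near background limits Cxcl9 and Cxcl10, which were not well above it on 1 and 5 of the 9 arrays.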

Other observations

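Probes of 3 further chemokine ligands, Xcl1, Cxcl1 and Ccl22, were well above background on EV replicate 3 alone, at -3.39, -4.02 and -4.58, and were not tested. On the other 8 arrays their levels were -6.25 or lower, -6.21 or lower and -7.95 or lower.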
